A study of Rattus norvegicus with 12 samples.

Results

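The RNA of 6 hormone and growth factor receptor genes were followed in rat liver, out of 15445 genes named on the array: the prolactin receptor (Prlr), the leptin receptor (Lepr), the epidermal growth factor receptor (Egfr), the insulin receptor (Insr), the hepatocyte growth factor receptor (Met) and the interleukin-6 receptor alpha chain (Il6r). Every non-control probe carrying 1 of the 6 symbols was taken, which gave 6 probes for 5 genes. The array names the interleukin-6 receptor Il6ra, so its probe was added through the transcript accession, and 7 probes were followed in all. Egfr had 2 probes, spotted 1 time and 10 times per array. Prlr and Lepr had 1 probe each, spotted 10 times, and Insr, Met and Il6r had 1 probe with 1 spot. The Prlr probe is annotated to transcript variant 2, but without the probe sequences neither this probe nor those of Lepr could be assigned to splice forms. All 7 probes were well above background in both dyes on all 12 arrays.

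Prlr, Lepr and Il6r belong to the cytokine receptor superfamily, which has no enzyme of its own and signals through Janus kinases and STAT transcription factors. Prolactin and growth hormone (GH) receptors act mainly through STAT5, and leptin and interleukin-6 receptors mainly through STAT3. Egfr, Insr and Met are receptor tyrosine kinases that bind epidermal growth factor and its relatives, insulin, and hepatocyte growth factor. The liver responds to all of these hormones, and in the rat its prolactin receptor is known to be more abundant in females. Male rats secrete GH in pulses and female rats almost continuously, and removing the pituitary (hypophysectomy) takes away GH together with the other pituitary hormones, prolactin among them.

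The livers came from 12-week-old Fischer 344 rats. RNA of each sex, either intact or hypophysectomised, was pooled over 3 to 4 livers, with a different pool on each array of a comparison. Hypophysectomised males given GH formed 2 further RNAs: 1 pool of 4 livers killed 30, 60 or 90 min after a single injection, and 1 pool of 5 livers from rats injected 2 times, 3 or 4 h apart. The 6 pairs of RNAs were hybridised directly on arrays read in 2 colours, each pair on 2 arrays with the dyes exchanged. Within each GH comparison both arrays carried the same GH pool. Such a pair of arrays repeats 1 pool and differs only in the hypophysectomised male RNA and the dye. The treatment label of the first 1-injection array leaves the hormone out, and its title was used. Its ratios, given below as the first of each pair, were 1.75 for Prlr and 2.15 for Lepr, against 1.39 and 2.13 on the other array.

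The regulatory sequence is shown for Prlr, the receptor with the largest ratios, because GH acts through STAT5, whose known binding motif is TTCNNNGAA. The motif reads the same on both strands. RefSeq (build GRCr8) gives Prlr 2 start windows on the forward strand, of which the 250 bases before the start are printed, with the motif in capitals. The array files name no genome build, and the windows were matched by gene symbol.
Prlr first window, chr2:60861515-60861764: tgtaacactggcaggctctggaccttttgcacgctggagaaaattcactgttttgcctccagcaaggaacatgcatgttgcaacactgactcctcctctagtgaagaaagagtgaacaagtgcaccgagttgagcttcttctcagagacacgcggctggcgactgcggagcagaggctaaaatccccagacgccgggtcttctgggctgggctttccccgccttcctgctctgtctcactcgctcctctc
Prlr second window, chr2:60909409-60909658: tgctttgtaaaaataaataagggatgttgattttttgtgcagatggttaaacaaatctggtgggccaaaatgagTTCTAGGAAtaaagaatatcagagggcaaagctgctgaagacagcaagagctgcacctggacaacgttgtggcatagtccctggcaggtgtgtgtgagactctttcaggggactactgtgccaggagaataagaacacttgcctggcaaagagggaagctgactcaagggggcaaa
The second window held 1 match, TTCTAGGAA, from 176 to 168 bases before the start, and the first held none. Of the 7 windows of the 6 genes, that was the only one with a match, and 7.67% of all 33469 windows of the same length hold the motif. A match describes letters in a window and was not tested as a binding site.

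All ratios below are log2 ratios of the RNA named first over the other, after background correction and loess normalization within each array, and n is 2 arrays per comparison unless stated. Array values are given in the order of replicate 1 and replicate 2. Fitted values carry the standard error (SE) of a limma model over all 12 arrays, with p-values adjusted by the Benjamini-Hochberg method over all probes tested in that comparison, and a probe is called changed at an adjusted p under 0.05. In each channel, 58.4% to 71.1% of all probes exceeded background by the scanner's own test, no spot was saturated, and precision is limited by how few arrays there are. The arrays lay on 3 slides: replicate 1 of the 4 comparisons without GH on slide 1, replicate 2 of them on slide 2, and the 4 GH arrays on slide 3. Each array value is therefore also the value within its slide, with the dye effect left in. All 10 hepatocyte markers were well above background in every channel. In pooled tissue, a smaller number of cells carrying a receptor and less receptor RNA per cell cannot be told apart. The GH comparisons share the hypophysectomised male RNA, and each RNA without GH enters at least 2 comparisons, so the ratios of different comparisons are not independent.

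Receptor RNA differed between the sexes, after hypophysectomy and after GH. The counts below are of probes, and Egfr enters them with both of its 2 probes, which were called together or not at all. In intact males against intact females 5 of the 7 probes were called, 2 higher and 3 lower, where 15.5% of 25714 tested probes were called (8.07% higher and 7.42% lower). Hypophysectomised against intact males gave 5 calls, 2 higher and 3 lower, against 37.5% of all tested probes (19.0% higher and 18.5% lower). Hypophysectomised against intact females gave 4 calls, 1 higher and 3 lower, against 36.3% (17.9% higher and 18.5% lower). Between hypophysectomised males and hypophysectomised females 2 probes were called, both lower in males, where 0.949% of all tested probes were called (0.530% higher and 0.419% lower). A single GH injection gave 4 calls, all higher, against 14.3% (7.49% higher and 6.79% lower). After 2 GH injections there were 5 calls, 4 higher and 1 lower, against 30.8% (15.8% lower). The response to hypophysectomy differed between the sexes at 3 probes, 1 higher and 2 lower in males, against 13.5% (6.48% higher and 7.01% lower). The 2 GH treatments differed from each other at 4 probes, 2 higher and 2 lower after 2 injections, against 10.4% (5.56% higher and 4.82% lower). The median ratio of the 7 probes was -0.03, 0.08, -0.22, -0.15, 0.38 and 0.88 in the 6 direct comparisons in that order, and the median over all tested probes was between -0.01 and 0.01 in every comparison. Prlr was called in all 6 direct comparisons, Lepr and both Egfr probes in 5, Il6r in 3, Met in 1 and Insr in none.

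These counts depend on few arrays and on the removal of intensity trends. Of the 32 calls, 2 remained when arrays were centred on their median in place of loess, and none changed direction. The SE grew, and some ratios stayed near their size, as for Prlr in hypophysectomised over intact males (2.33 ± 0.44) and Lepr after 1 GH injection (2.08 ± 0.30). Others changed in size. After 2 GH injections Il6r went from -0.54 to -0.97 and Prlr from 0.88 to 0.53. Leaving out an array leaves 1 array in its comparison, and the SE then comes from the arrays of the other comparisons, here and in all such values below. Without either of its arrays, the comparison of intact sexes gave 3 calls, and that of 2 GH injections also gave 3. Hypophysectomy in females gave 2 calls without replicate 1. The hypophysectomised sexes gave 0 calls without replicate 1 (2 probes had an unadjusted limma p under 0.05) and 1 without replicate 2. A single injection gave 1 call without replicate 1 and 2 without replicate 2. The difference between the GH treatments gave 2 calls without any 1 of its 4 arrays, and the sex difference in the response to hypophysectomy gave 5 without replicate 2 of hypophysectomised over intact males.

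**Figure D1:**
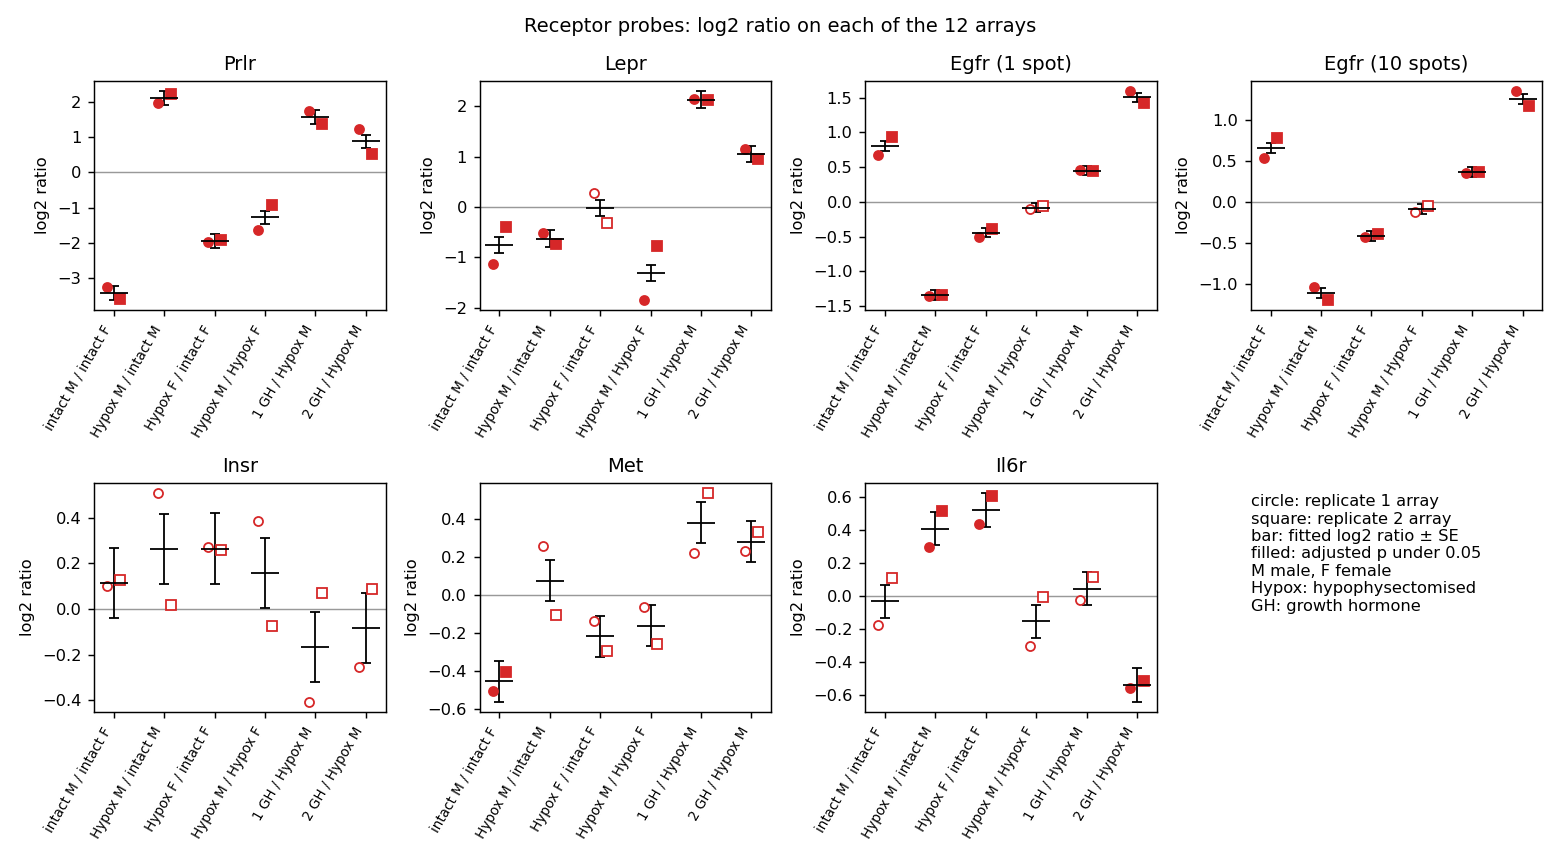
Log2 ratio of each receptor probe on every array (circles replicate 1, squares replicate 2) for the 6 comparisons on the horizontal axis, with the fitted log2 ratio ± SE as bars and filled symbols where the adjusted p was under 0.05. Vertical scales differ between panels. Prlr spans from -3.60 in intact males over intact females to 2.23 in hypophysectomised over intact males, while the Insr arrays lie between -0.40 and 0.51.

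Prlr RNA was far lower in intact males than in intact females. The ratios were -3.24 and -3.60 on the 2 arrays, and the fitted log2 ratio was -3.42 ± 0.19 (SE), a 10.7-fold difference with an adjusted p of 1.52e-05. On the arrays that held hypophysectomised and intact RNA together, Prlr moved in opposite directions in the 2 sexes. In males it rose, with ratios of 1.97 and 2.23 and a fitted value of 2.10 ± 0.19 (4.29-fold, adjusted p = 1.44e-04). The fitted value was 1.25 ± 0.16 without background correction and 2.74 ± 0.21 with the scanner's processed signals. In females it fell, with ratios of -1.99 and -1.92 and a fitted value of -1.95 ± 0.19 (3.88-fold, adjusted p = 2.06e-04). Within each of these comparisons both arrays had the same sign and lay close together beside the size of the ratio. By the routes through the other RNAs, given below, neither the rise nor the fall was of this size. The difference between the male and the female response was 3.10 ± 0.19 with an adjusted p of 3.96e-05. It is the mean of 2 estimates, 4.06 and 2.15, and the SE leaves out their disagreement.

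Prlr was also lower in hypophysectomised males than in hypophysectomised females on the arrays that held both RNAs (-1.63 and -0.92). By the route through intact RNAs, given below, it was not. The direct fitted ratio was -1.28 ± 0.19 (2.42-fold, adjusted p = 0.0305). That call did not hold without replicate 1 (-0.96, adjusted p = 0.269) or without replicate 2 (-1.59, adjusted p = 0.0991), and with the replicate number as a block its adjusted p was 0.0665. Growth hormone raised Prlr in hypophysectomised males. After 1 injection the ratios were 1.75 and 1.39, with a fitted value of 1.57 ± 0.19 (2.96-fold, adjusted p = 0.00186). After 2 injections they were 1.23 and 0.52, with a fitted value of 0.88 ± 0.19 (1.84-fold, adjusted p = 0.00959). Both arrays after 1 injection exceeded both arrays after 2, but the difference, -0.69 ± 0.27, was not called (adjusted p = 0.166, 95% confidence interval -1.32 to -0.06 before adjustment). Leaving out replicate 1 took the 1-injection ratio to 1.46 (adjusted p = 0.0650) and the 2-injection ratio to 0.56 (adjusted p = 0.245).

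The Prlr ratios did not close around the loop of the 4 RNAs without GH. Going from intact females to hypophysectomised males through intact males summed to -1.32, and through hypophysectomised females to -3.23. The loop sum, which would be 0 for ratios that add up, was 1.91 ± 0.39, at 2.35 on slide 1 and 1.47 on slide 2. Only 0.0754% of 23859 tested probes had a loop sum of larger size, the median size being 0.0557. After adjustment 0% of them were called by limma (0 probes, against 114 at an unadjusted p under 0.05), and the unadjusted p of Prlr was 0.00114. The loop sums of the other 6 probes lay between -0.05 and 0.04. The intact male to female ratio of Prlr was thus -3.42 on the arrays that held both RNAs and -5.33 through the hypophysectomised RNAs. The sex difference in the response was 4.06 from the hypophysectomy arrays and 2.15 from the arrays that compared the sexes, with the same sign by both routes. Through hypophysectomised females, hypophysectomised males stood at -3.23 to intact females, beside -3.42 for intact males directly, so little of the 2.10 rise remained. Through intact males, hypophysectomised males stood at -1.32 to intact females, above hypophysectomised females at -1.95, the reverse of the direct -1.28. That -1.32 is near -1.28, so little of the female fall remained by that route. The SE of a fitted ratio leaves this disagreement out.

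The channel levels show where the Prlr ratios part. These are log2 intensities after loess and quantile scaling of average brightness between arrays (limma's Aquantile), and no probe's level is set against another's. Intact females were at 13.57, 13.58, 13.54 and 13.55 on their 4 arrays. Intact males read 10.33 and 9.97 on the arrays shared with intact females, and 7.24 and 7.83 on those shared with hypophysectomised males. Intact male channels thus formed pairs according to the RNA they were hybridised with, with a gap of more than 2 log2 units between the pairs. The 8 hypophysectomised male channels ran from 9.21 through a median of 9.95 to 10.28, above the lower pair and reaching into the higher one, with all 4 replicate 2 channels (10.06 to 10.28) above all 4 replicate 1 channels (9.21 to 9.83). Hypophysectomised females were at 11.55 and 11.63 beside intact females, and at 11.24 and 11.07 beside hypophysectomised males. The loop sum was 2.53 with the scanner's processed signals and 1.04 without background correction. The part that the paired RNA, the dye channels or the background play in this gap was not tested.

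**Figure D2:**
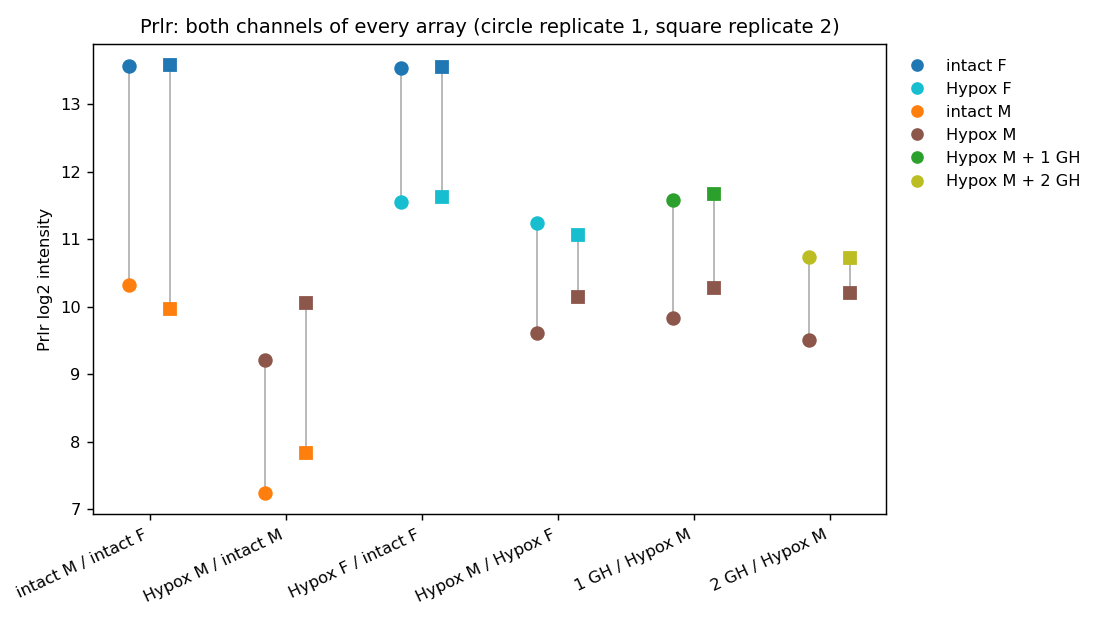
Log2 intensity of Prlr in both channels of every array, joined by a line, for the 6 comparisons (circles replicate 1, squares replicate 2, colours the RNA). Intact male RNA reads 9.97 and 10.33 beside intact female RNA and 7.24 and 7.83 beside hypophysectomised male RNA, while intact female RNA stays between 13.54 and 13.58.

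By its median level Prlr was ordered intact females (13.56), hypophysectomised males after 1 GH injection (11.63), hypophysectomised females (11.39), hypophysectomised males after 2 GH injections (10.73), hypophysectomised males (9.95) and intact males (8.90). The channels of the 1-injection pool, at 11.58 and 11.67, overlapped those of hypophysectomised females, and hypophysectomised and intact males overlapped each other. The other neighbours in that order did not overlap. Over the 10 spots of the probe, the SD of the log2 ratio within an array was between 0.0263 and 0.125, well under the gaps between arrays of the loop. Of all named genes, those whose 12 array ratios were most like Prlr's were Ppp2r1b, a scaffold subunit of protein phosphatase 2A (Pearson r = 0.966), Slc17a3, a sodium and phosphate transporter family member (r = 0.965), Clic5 (r = 0.953) and Prickle1 (r = 0.948). These describe 12 arrays that share RNAs, and the ratio of Ppp2r1b in intact males over intact females was -1.99.

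**Figure D3:**
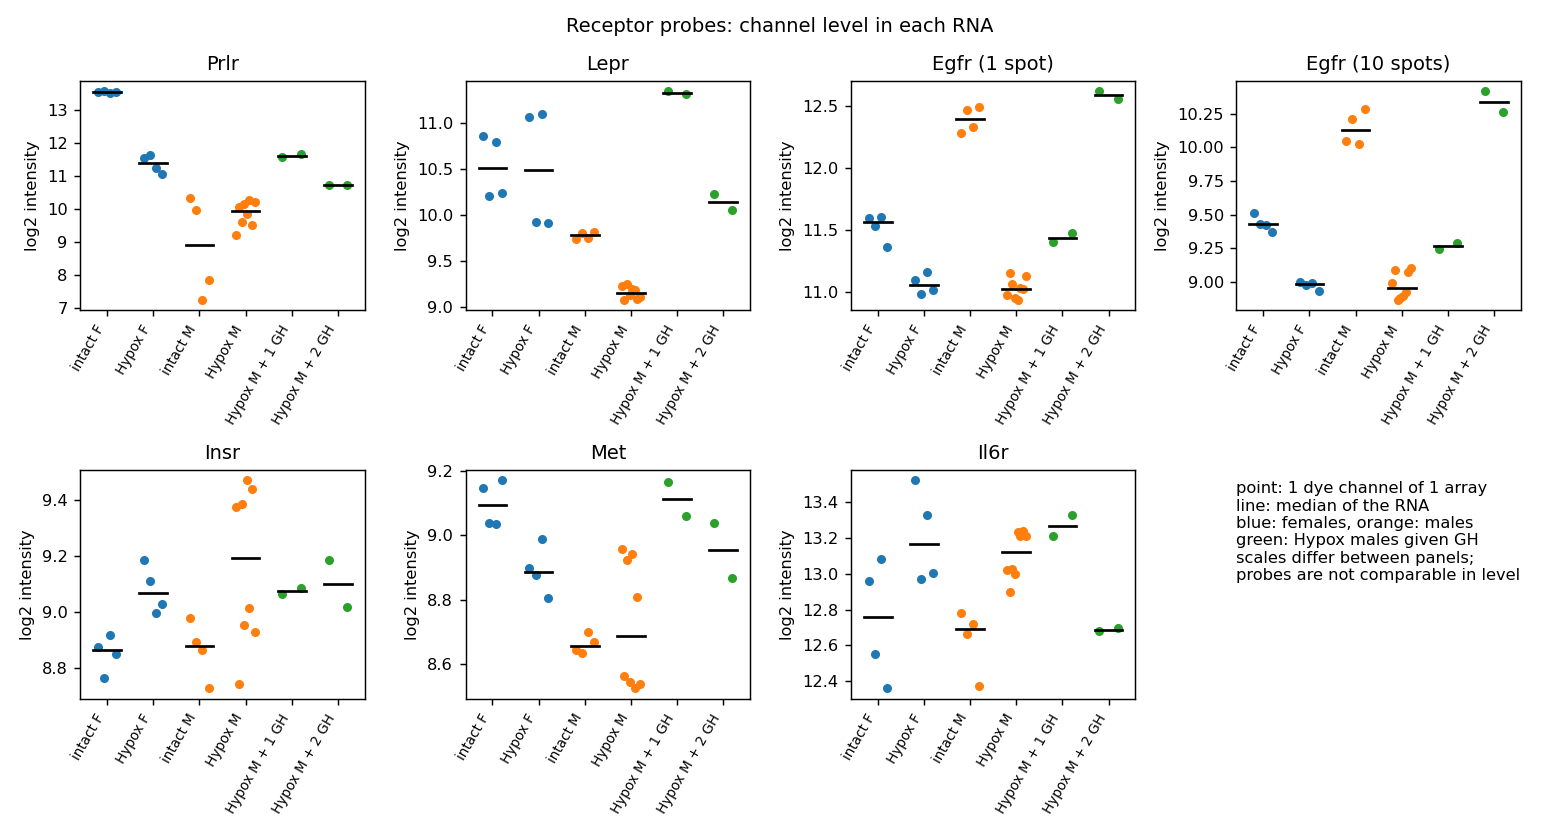
Log2 intensity of each receptor probe in each RNA, where a point is 1 dye channel of 1 array and the line is the median of that RNA. Vertical scales differ between panels and probes are not comparable in level. Prlr is highest in intact females (median 13.56), Lepr after 1 GH injection (11.33) and Egfr after 2 injections (12.58 on its 1-spot probe).

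The counts of the gene lists below are to be read against the share of all tested probes called in the same comparison. That share was 15.5% for the intact sexes, 37.5% and 36.3% for hypophysectomy in males and females, and 0.949% between the hypophysectomised sexes. It was 14.3% for 1 GH injection, 30.8% for 2 and 10.4% for the difference between the GH treatments. A list with 0 calls between the hypophysectomised sexes is thus near the share over all probes. Among 15 genes around the prolactin and GH receptors, most of them relays or inhibitors of the signal but with hormones and the receptor Prlhr among them, hypophysectomy in males lowered 7 of 13 tested and raised 2 (median -0.23). Cish and Socs2, STAT5 targets that damp cytokine receptor signals, changed by -2.08 ± 0.08 and -1.98 ± 0.13, Stat5a by -1.20 ± 0.14, and Prlhr, the receptor of prolactin-releasing peptide, by -0.74 ± 0.05. In females 3 of 12 fell and 2 rose (median -0.10), Socs2 by -2.12 ± 0.13 and Stat5a by -1.08 ± 0.14. A single GH injection raised 3 of 12 and lowered 1 (median -0.07), with Socs2 at 2.16 ± 0.13 and Cish at 1.01 ± 0.08. A pair of injections raised 6 of 14 and lowered 1 (median 0.15), with Socs2 at 3.28 ± 0.13, Cish at 0.89 ± 0.08 and Jak2, the kinase bound to the prolactin and GH receptors, at 0.74 ± 0.10. Intact males exceeded intact females at 2 of 13 genes (median 0.07), Cish (1.91 ± 0.08) and Prlhr (0.79 ± 0.05), and 0 of 12 were called between the hypophysectomised sexes by limma, with a median of 0.05.

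Lepr RNA was higher in females than in males and rose after GH. In intact males over intact females the array ratios were -1.12 and -0.40, with a fitted value of -0.76 ± 0.16 (1.69-fold, adjusted p = 0.0152). In hypophysectomised males over intact males they were -0.52 and -0.73, fitted at -0.63 ± 0.16 (1.54-fold, adjusted p = 0.0174). Hypophysectomised over intact females gave 0.27 and -0.31, of opposite sign, and a fitted value of -0.02 ± 0.16 that was not called (adjusted p = 0.936, 95% interval -0.39 to 0.35). Between the hypophysectomised sexes the ratios were -1.85 and -0.78, fitted at -1.31 ± 0.16 (2.49-fold, adjusted p = 0.0139). The dye term of the fit was -0.23 for Lepr, and without it the SE of these ratios was 0.24. The calls for the intact sexes (adjusted p = 0.0957), hypophysectomy in males (0.0893) and the hypophysectomised sexes (0.0870) were then lost. The male minus female response to hypophysectomy, -0.58 ± 0.16, was not called (adjusted p = 0.0509). It was called with the replicate number as a block (adjusted p = 0.0131), with slide as a random block (0.0487) or a fixed term (0.0383), and without replicate 2 of hypophysectomised over intact males (-0.66, adjusted p = 0.0472) or of the hypophysectomised sexes (-0.76, adjusted p = 0.0161).

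A single GH injection raised Lepr by 2.15 and 2.13 on the 2 arrays, fitted at 2.14 ± 0.16 (4.40-fold, adjusted p = 2.04e-04), and it was the largest receptor response to GH. A pair of injections gave 1.14 and 0.95, fitted at 1.05 ± 0.16 (2.07-fold, adjusted p = 0.00157). The response to 2 injections was lower than that to 1 by 1.09 ± 0.23 on the log2 scale (adjusted p = 0.0222). Without the dye term the SE of that difference was 0.35, and it was not called (adjusted p = 0.127). Leaving out any 1 of the 4 GH arrays took that difference out of the calls, at -1.36, -0.82, -0.93 and -1.25 with adjusted p from 0.0569 to 0.172. The ratio of the intact sexes lost its call without either array (-0.60 and -0.92, adjusted p = 0.270 and 0.0931). Without replicate 1, hypophysectomy in males gave -0.47 (adjusted p = 0.180) and the hypophysectomised sexes gave -0.95 (adjusted p = 0.198), and without replicate 2 the 2-injection ratio was 0.88 (adjusted p = 0.0506).

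Female channels differed between replicate numbers in Lepr while male channels lay close together. Hypophysectomised female channels were at 11.07 and 11.10 on the replicate 1 arrays and at 9.93 and 9.91 on the replicate 2 arrays. Their replicate 1 channels were Alexa 555 on slide 1 and their replicate 2 channels Alexa 647 on slide 2. Pool, slide and dye cannot be told apart there. Intact females were at 10.86 and 10.80 on replicate 1 arrays and at 10.21 and 10.24 on replicate 2 arrays. Both numbers put females above intact males, whose 4 channels lay between 9.74 and 9.81, and above hypophysectomised males, whose 8 channels ran from 9.08 to 9.25 with a median of 9.16. The 1-injection pool read 11.35 and 11.32, and the 2-injection pool 10.23 and 10.06. In the order of medians, 1 injection stood first without overlap, intact females (10.52), hypophysectomised females (10.50) and 2 injections (10.15) overlapped, and intact and hypophysectomised males followed, each below its neighbour without overlap. The sources used here do not say which arrays held the same pool.

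A further probe, described on the array as the leptin receptor gene but carrying no gene symbol, lay outside the selection and was read beside Lepr. It was called in the same direction in intact males over intact females (-0.50 ± 0.08, adjusted p = 0.00492), between the hypophysectomised sexes (-0.69 ± 0.08, adjusted p = 0.0122), after 1 GH injection (1.07 ± 0.08, adjusted p = 2.22e-04) and after 2 (0.37 ± 0.08, adjusted p = 0.0104). The GH treatments differed there by -0.71 ± 0.12 (adjusted p = 0.00912). Hypophysectomy in males, where Lepr was called lower, gave -0.02 ± 0.08 on this probe (adjusted p = 0.873), and in females it gave 0.06 ± 0.08 (adjusted p = 0.579).

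Macrophage markers were called in the direction of Lepr in 3 of the 5 direct comparisons where Lepr was called. There were 9 such markers with a probe, all well above background in every channel. Of these, 7 were lower in intact males than in intact females (median -0.28), where 15.5% of all tested probes were called. In hypophysectomised males 4 were lower than in hypophysectomised females (median -0.28), against 0.949%. After 1 GH injection 7 rose (median 0.30), against 14.3%. In hypophysectomised over intact males, where Lepr was lower, 1 was higher and 1 lower (median 0.05), and the same counts were found in females (median 0.08). After 2 injections 0 of 9 were called by limma (median 0.05), where 30.8% of all tested probes were called. Against 10.4% of all tested probes, 4 of these markers were lower after 2 injections than after 1 (median -0.25). Their summed intensity was between 90410 and 96210 in intact females, 89060 and 100500 in hypophysectomised females, 72460 and 73920 in intact males, 71460 and 84170 in hypophysectomised males, 98470 and 100500 after 1 injection and 78960 and 83830 after 2. Vsig4 and Clec4f, receptors of liver-resident macrophages, were at 0.46 ± 0.05 and 0.44 ± 0.06 after 1 injection, against 2.14 for Lepr. Summed lymphocyte markers were likewise lower in intact males (3366 to 3512) than in intact females (4376 to 4446). They were lower in hypophysectomised males (3865 to 4468) than in hypophysectomised females (4955 to 5299), and stood at 5139 to 5167 after 1 injection. Endothelial medians were also lower in intact males (29690) than in intact females (33020). Stellate and hepatocyte medians were higher in intact males. The part of macrophages or other cells in the Lepr ratios was not tested. Among the genes whose array ratios were most like Lepr's over the 12 arrays were C1qb, a complement subunit that is itself 1 of the 9 markers (r = 0.930), and P2ry6, a nucleotide receptor (r = 0.928), beside Fez1 (r = 0.973) and Tmx4 (r = 0.927).

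**Figure D4:**
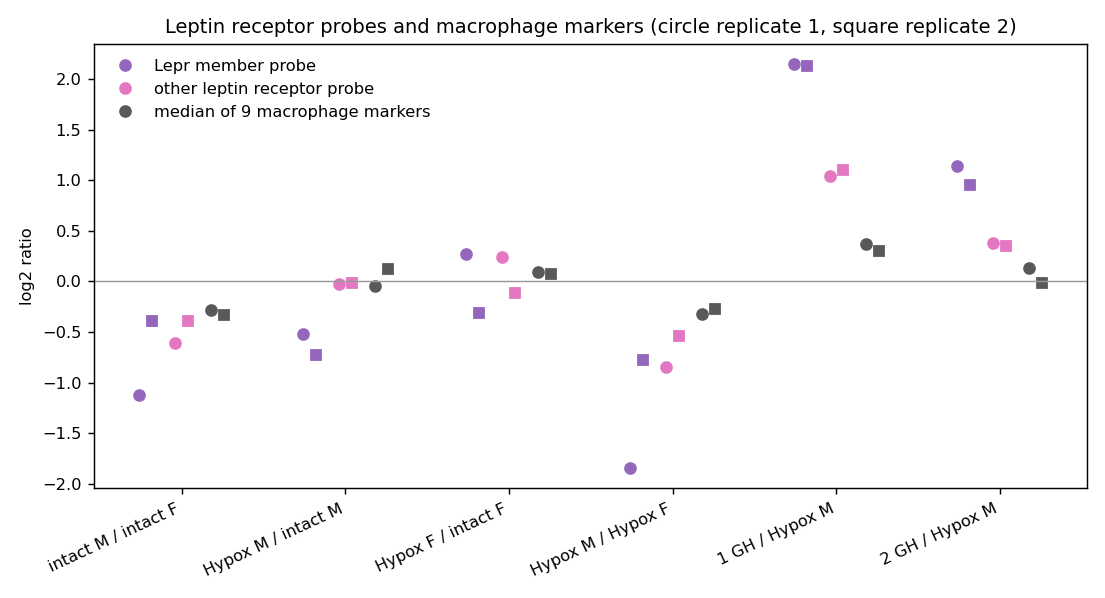
Log2 ratio on each array for the Lepr probe, for the unnamed probe described as the leptin receptor gene, and for the median of 9 macrophage markers, by comparison (circles replicate 1, squares replicate 2). After 1 GH injection Lepr reads 2.15 and 2.13 and the other leptin receptor probe 1.04 and 1.11, and the macrophage median is 0.37 and 0.30.

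Of 8 other genes of leptin signalling, 7 were tested in each comparison. The largest ratios belonged to Igfbp2, a carrier of insulin-like growth factors that leptin is known to raise in mouse liver: it rose by 2.43 ± 0.27 after hypophysectomy in males and by 1.95 ± 0.27 in females, and was lower in intact males than in intact females (-1.45 ± 0.27), the only call among the 7 there (median 0.04). Hypophysectomy raised 4 and lowered 1 in males (median 0.30), and raised 3 and lowered 1 in females (median 0.17), Leprotl1 being the member that fell (-0.50 ± 0.08 and -0.29 ± 0.08). Stat3, the main transcription factor of leptin and interleukin-6 receptors, rose by 0.53 ± 0.06 after 1 GH injection and by 1.01 ± 0.06 after 2, where 2 of 7 rose and 1 fell each time (medians 0.05 and -0.03). Pias3, an inhibitor of STAT3, fell by 0.65 ± 0.05 and by 0.64 ± 0.05. Between the hypophysectomised sexes 0 of 7 were called by limma (median -0.03).

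Egfr RNA was higher in intact males than in females, fell after hypophysectomy in both sexes and rose after GH, most after 2 injections. The 1-spot probe read 0.68 and 0.93 in intact males over intact females, fitted at 0.81 ± 0.07 (1.75-fold, adjusted p = 1.31e-04). The 10-spot probe read 0.54 and 0.78, fitted at 0.66 ± 0.06 (1.58-fold). Hypophysectomy in males lowered the 1-spot probe to -1.35 and -1.33, fitted at -1.34 ± 0.07 (2.53-fold), and the 10-spot probe to -1.03 and -1.19, fitted at -1.11 ± 0.06 (2.16-fold). In females the 2 probes fell less, at -0.44 ± 0.07 (1.36-fold, adjusted p = 0.00170) and -0.41 ± 0.06 (1.33-fold, adjusted p = 0.00158). The male minus female response was -0.89 ± 0.07 on the 1-spot probe (adjusted p = 1.15e-04) and -0.73 ± 0.06 on the 10-spot probe. Each is the mean of 2 estimates, -0.90 and -0.89 on the 1-spot probe and -0.70 and -0.75 on the 10-spot probe. The estimates use the same RNAs, and the SE takes their 8 arrays as independent. Between the hypophysectomised sexes neither probe was called, at -0.08 ± 0.07 (95% interval -0.24 to 0.07) and -0.09 ± 0.06 (-0.23 to 0.06).

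After 1 GH injection the 1-spot Egfr probe read 0.46 and 0.44, fitted at 0.45 ± 0.07 (1.37-fold, adjusted p = 0.00438), and the 10-spot probe 0.35 and 0.37, fitted at 0.36 ± 0.06 (adjusted p = 0.00784). After 2 injections they read 1.59 and 1.42, fitted at 1.51 ± 0.07 (2.84-fold), and 1.35 and 1.16, fitted at 1.25 ± 0.06 (2.39-fold). The 2-injection response exceeded the 1-injection response by 1.05 ± 0.10 (adjusted p = 8.51e-04) and by 0.89 ± 0.09 (adjusted p = 0.00119). Prlr and Lepr had the higher fitted ratio after 1 injection and Egfr after 2, with the difference called for Lepr and Egfr and not for Prlr. The 1-injection calls were lost without either array, where the ratios were 0.47 and 0.43 on the 1-spot probe and 0.43 and 0.29 on the 10-spot probe (adjusted p from 0.0695 to 0.178), and the female calls without replicate 1, at -0.34 (adjusted p = 0.0564) and -0.33 (adjusted p = 0.0525).

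**Figure D5:**
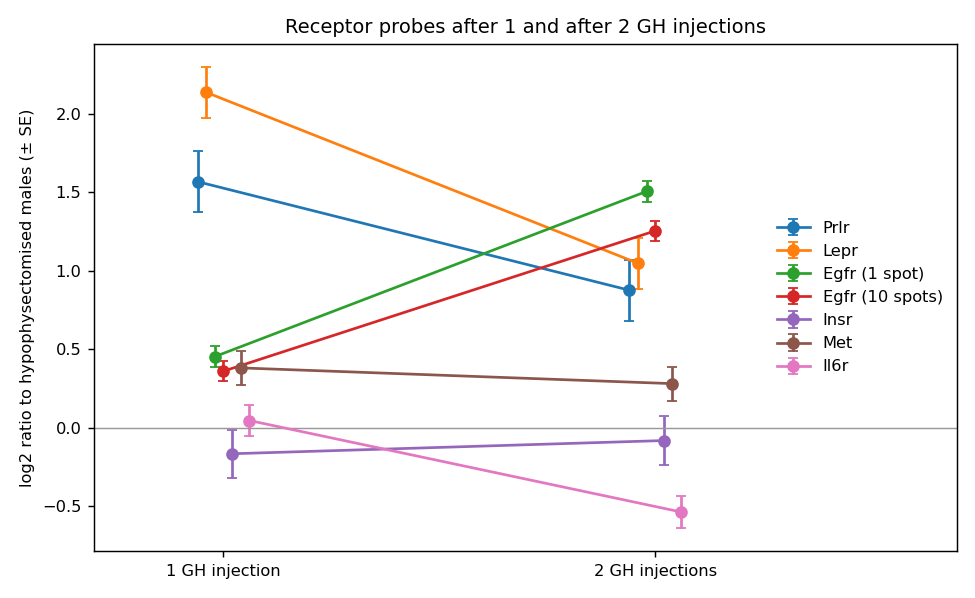
Fitted log2 ratio to hypophysectomised males (± SE) of each receptor probe after 1 and after 2 GH injections, with a line joining the values of a probe. Lepr goes from 2.14 to 1.05 and Prlr from 1.57 to 0.88, while the Egfr probes go from 0.45 to 1.51 and from 0.36 to 1.25.

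The level of Egfr on the 1-spot probe was highest after 2 injections (12.61 and 12.55), followed by intact males (12.28, 12.46, 12.33 and 12.49) without overlap. Intact females, at 11.60, 11.53, 11.60 and 11.36, overlapped the 1-injection channels at 11.40 and 11.47. Hypophysectomised females (10.98 to 11.17) and hypophysectomised males (10.94 to 11.16, median 11.03) were lowest and overlapped. The 10-spot probe gave the same order of medians, but there 2 injections and intact males overlapped and intact females and 1 injection did not. The SD over its 10 spots within an array was between 0.0249 and 0.0573. The genes whose array ratios were most like those of the 1-spot probe were Hdac2, a histone deacetylase (r = 0.980), Scarb2, a lysosomal membrane protein (r = 0.978), Ankh, a pyrophosphate transporter (r = 0.977), and Nup98, a nuclear pore protein (r = 0.967).

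Of 20 further genes of the EGF receptor family and its ligands, 11 to 14 were tested per comparison. Tgfa, a ligand of Egfr, was higher in intact males than in intact females (0.65 ± 0.07), rose after hypophysectomy in females (0.59 ± 0.07) and fell after 1 and 2 GH injections (-0.41 ± 0.07 and -0.58 ± 0.07). Nrg1, a ligand of the related ERBB receptors, was lower in intact males (-0.56 ± 0.14), fell after hypophysectomy in females (-0.90 ± 0.14) and rose after 2 injections (0.97 ± 0.14). Errfi1, an inhibitor of Egfr, rose by 1.75 ± 0.51 and Lrig3 fell by 0.93 ± 0.20 after 2 injections. In intact males over females 1 of 11 was higher and 2 lower (median -0.01), after hypophysectomy 1 of 11 rose and 1 fell in males (median 0.01) and 2 rose and 2 fell in females (median 0.10). A single injection raised 1 of 12 and lowered 1 (median -0.10), 2 injections raised 2 of 14 and lowered 3 (median 0.05), and between the hypophysectomised sexes 0 of 11 were called by limma (median -0.02).

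Insr was called in no comparison. Its fitted ratios were 0.11 ± 0.15 in intact males over intact females, 0.26 ± 0.15 after hypophysectomy in males and 0.26 ± 0.15 in females, 0.16 ± 0.15 between the hypophysectomised sexes, -0.17 ± 0.15 after 1 GH injection and -0.08 ± 0.15 after 2. The 95% intervals of these values reached 0.62 at most and -0.52 at least, so changes of that size are not shown to be absent. The array values ran from -0.40 (1 injection, replicate 1) to 0.51 (hypophysectomised over intact males, replicate 1). Hypophysectomised male channels fell apart by replicate number, at 9.37 to 9.47 on the 4 replicate 1 arrays and at 8.74 to 9.01 on the 4 replicate 2 arrays. Without replicate 2, hypophysectomy in males gave 0.63 ± 0.15 and was called (adjusted p = 0.0136). All neighbours in the order of its levels overlapped, from hypophysectomised males (median 9.19) to intact females (8.86), except that hypophysectomised females (8.997 to 9.19) lay above intact males (8.73 to 8.98).

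Genes downstream of the insulin receptor were called about as often as other probes after hypophysectomy and after 1 GH injection. Of 20 listed, 18 or 19 were tested, and the called share was 31.6% and 38.9% after hypophysectomy in males and females, 15.8% after 1 injection, 36.8% after 2 and 26.3% between the intact sexes. Intact males were higher at 3 and lower at 2 (median 0.07), among them Pck1 and G6pc, enzymes of glucose production, at 1.67 ± 0.25 and 1.02 ± 0.19. Hypophysectomy lowered 5 and raised 1 in males (median -0.15), with the insulin receptor substrate Irs2 at 1.13 ± 0.25 and G6pc at -0.66 ± 0.19, and lowered 5 and raised 2 in females (median -0.09), with Pck1 at 1.44 ± 0.25. A single GH injection lowered 3 and raised none (median -0.05), G6pc by -0.94 ± 0.19. A pair of injections lowered 6 and raised 1 (median 0.01), G6pc by -1.90 ± 0.19 and Srebf1, a regulator of fatty acid synthesis, by -1.10 ± 0.18. Between the hypophysectomised sexes 0 of 19 were called by limma (median 0.01).

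Met was lower in intact males than in intact females, at -0.50 and -0.40, fitted at -0.45 ± 0.11 (1.37-fold, adjusted p = 0.0247), and that call was lost without either array (-0.40 and -0.51, adjusted p = 0.299 and 0.167). It was the only call for Met. After 1 GH injection the arrays read 0.22 and 0.54, fitted at 0.38 ± 0.11 (adjusted p = 0.0524), and after 2 injections 0.23 and 0.33, fitted at 0.28 ± 0.11 (adjusted p = 0.0889). The 1-injection ratio was called with slide as a fixed term (adjusted p = 0.0435). With the 4 GH arrays alone both GH ratios were called (adjusted p = 5.71e-12 and 3.95e-07), but in that fit limma gave every probe the same SE, 0.05. Hypophysectomy gave 0.08 ± 0.11 in males and -0.22 ± 0.11 in females, and the hypophysectomised sexes differed by -0.16 ± 0.11. As with Insr, hypophysectomised male channels separated by replicate number, at 8.81 to 8.96 and at 8.52 to 8.56, and all neighbours in the order of levels overlapped, from 1 GH injection (median 9.11) to intact males (8.66).

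Among 12 genes around the HGF receptor, Mst1r, the receptor related to Met that binds macrophage-stimulating protein, rose by 1.20 ± 0.10 after 1 GH injection and by 0.94 ± 0.10 after 2. A single injection raised 2 of 11 and lowered none (median 0.13), and 2 injections raised 3 of 12 and lowered 3 (median 0.00354). In intact males 1 of 9 was higher and 2 lower (median 0.03), with Spint2, an inhibitor of the protease that activates HGF, at 0.53 ± 0.12. Hypophysectomy raised 2 of 9 and lowered 2 in males (median 0.02), St14, a membrane protease, by -0.62 ± 0.10. In females it raised 1 of 9 and lowered 2 (median -0.000732), and between the hypophysectomised sexes 0 of 9 were called by limma (median -0.07).

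Il6r rose after hypophysectomy in both sexes and fell after 2 GH injections. In males the ratios were 0.30 and 0.52, fitted at 0.41 ± 0.10 (1.33-fold, adjusted p = 0.0148), and in females 0.44 and 0.61, fitted at 0.52 ± 0.10 (1.44-fold, adjusted p = 0.00509). The response did not differ between the sexes beyond its error, at -0.12 ± 0.10 (95% interval -0.35 to 0.12). A pair of injections gave -0.56 and -0.52, fitted at -0.54 ± 0.10 (1.45-fold, adjusted p = 0.00430), whereas 1 injection gave -0.02 and 0.11, fitted at 0.05 ± 0.10 and not called. The GH treatments differed by -0.58 ± 0.14 (adjusted p = 0.0392). The sexes were not called different, at -0.03 ± 0.10 when intact and -0.15 ± 0.10 when hypophysectomised. The hypophysectomy calls were lost without replicate 2 (0.27, adjusted p = 0.167 in males, and 0.42, adjusted p = 0.105 in females), the 2-injection call without either array (-0.51 and -0.56, adjusted p = 0.0848 and 0.0566), and the difference between GH treatments without any 1 of the 4 GH arrays (-0.67 to -0.50, adjusted p from 0.140 to 0.222).

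All neighbouring RNAs overlapped in Il6r level, from the 1-injection pool (13.21 and 13.33) down to the 2-injection pool (12.68 and 12.70). The 8 hypophysectomised male channels lay between 12.90 and 13.24 with a median of 13.12, above both 2-injection channels. The genes most like Il6r over the 12 arrays were Rcl1, a ribosomal RNA processing factor (r = 0.968), Ntf3, a neurotrophin (r = 0.950), Sh2b3, an adaptor that restrains cytokine signalling (r = 0.950), and Il1rap, the accessory protein of the interleukin-1 receptor (r = 0.946). Il1rap read 0.43 and 0.52 after hypophysectomy in males and females and -0.52 after 2 injections, beside 0.41, 0.52 and -0.54 for Il6r.

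The other genes of the interleukin-6 receptor family and its acute phase targets included several large ratios. A pair of GH injections raised 7 of 10 tested and lowered 1 (median 0.45): A2m, alpha-2-macroglobulin, rose by 2.34 ± 0.22, Osmr, the oncostatin M receptor, by 2.02 ± 0.09, and Fgb, fibrinogen beta, by 1.48 ± 0.11, and Il6st, the gp130 chain that signals for Il6r, by 0.80 ± 0.12. A single injection raised 4 of 9 and lowered none (median 0.35), A2m by 1.24 ± 0.22 and Osmr by 0.37 ± 0.09. Lifr, the receptor of leukaemia inhibitory factor, was lower in intact males (-2.31 ± 0.08), rose after hypophysectomy in males (0.45 ± 0.08) and fell in females (-2.08 ± 0.08). In intact males 3 of 9 were higher and 1 lower (median -0.00292). After hypophysectomy 2 of 9 rose and none fell in males (median 0.07), and 4 rose and 1 fell in females (median 0.07). Between the hypophysectomised sexes 0 of 9 were called by limma (median -0.16).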

How the data were processed

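Pooled liver RNA was measured on 12 Agilent oligonucleotide arrays read in 2 colours, with Alexa 647 and Alexa 555. For every array the authors deposited scanner output of Agilent Feature Extraction 9.1.3.1 (per the file headers) with the mean and background intensity of 45018 spots in both colours, processed signals and flags. A deposited series table gives log2 ratios of channel 2 to channel 1 of those processed signals, as found from the values. No genome build is named for the array in the sources used here.

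Mean intensities were background-corrected (normexp, offset 50) and loess-normalized within arrays in limma 3.58.1 (R 4.3.3; version 1.17.8 of the package data.table). The loess curve gave zero weight to 1639 control spots and to spots marked as outliers, which were then dropped (0 at the receptor probes). The labelled dyes set the direction of each ratio, always channel 2 to channel 1, and spots sharing a probe were averaged. limma fitted 6 comparisons and a dye term to 12 arrays (5 residual and 3.08 prior degrees of freedom, prior SD 0.101). A probe was tested where at least 1 RNA was well above background on both arrays, in at least 0.5 of its spots. The sex difference in the response to hypophysectomy is the mean of its 2 direct estimates. Both estimates use the same RNAs, and the SE and p-value take their 8 arrays as independent. The procedure was tested on simulated data.

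P-values measure the spread between pools and arrays. For the GH comparisons, each with 1 GH pool on both arrays, they leave out the spread between GH-treated animals. Replicate numbers were checked as pairs through the deviations of same-numbered arrays, in the 9 pairs of comparisons that share an RNA. These correlated at 0.38 to 0.84 in the 3 pairs with that RNA on the same side of both ratios. In the 6 with it on opposite sides they correlated at -0.67 to 0.04. Those are the signs that shared pools would give in all but 1. Pairs of comparisons that share no RNA also correlated, from -0.53 to 0.41, so the signs cannot show whether pools were shared. The labels do not say which arrays hold the same pool, so the main fit has no block and the blocked value is given where it changes a call.

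The receptors, 7 pathway lists and 6 marker lists were chosen with earlier results of these data known. Listed genes with several probes were read from the brightest, and up to 4 called members per list were named by size. Genes like a receptor were the 4 with the highest Pearson r of the array ratios, for receptors called in at least 2 comparisons. They were taken from genes tested in all 6 comparisons and called in at least 2, without predicted or accession-like names. The alternatives tried are given in the closing section. Some listed genes are not reported here by name.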

Additional observations from a re-analysis of the deposited data

Results flagged for a closer look

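The response to hypophysectomy differed between the sexes at Prlr, by 3.10 ± 0.19 (male minus female, log2, adjusted p = 3.96e-05). All 4 hypophysectomy arrays had the sign of their sex. The 3.10 is the mean of 4.06 from those arrays and 2.15 from the arrays that compared the sexes. Its SE leaves out their disagreement. The response differed at the 1-spot Egfr probe by -0.89 ± 0.07 and at the 10-spot probe by -0.73 ± 0.06, where both sexes fell and males fell further on every array. The SE of such a difference takes the 8 arrays of its 2 estimates as independent, though both use the same RNAs. The responses to 2 and to 1 GH injections differed at Lepr by -1.09 ± 0.23, at the 1-spot Egfr probe by 1.05 ± 0.10, at the 10-spot probe by 0.89 ± 0.09 and at Il6r by -0.58 ± 0.14, in each case with both 2-injection arrays on the same side of both 1-injection arrays. The 2 GH pools also differ in the time of killing and in the number of livers, which cannot be told apart from the number of injections. No single channel stood far from the others in the RNA groups of 4 to 8 channels (0 of 28 groups by Dixon's test). That test cannot flag a group that splits into pairs. Intact males did so at Prlr, with 7.24 and 7.83 against 9.97 and 10.33.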

How the results depend on the processing

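No called receptor ratio reversed under any alternative run. Median centring in place of loess kept 2 of 32 calls (Prlr in intact males over females, and its sex-dependent response) and left counts of 1 for intact males over females, 1 for the sex difference in the response to hypophysectomy, and 0 for the other 6 results (1 to 4 probes at an unadjusted limma p under 0.05). Between the hypophysectomised sexes the count was 1 with processed signals, with the deposited ratios, without the dye term, with the replicate block and with the 8 arrays of the loop alone (chosen after seeing the data), and 0 with its own 2 arrays alone (2 probes at an unadjusted p under 0.05). The replicate block lost the Prlr call there (adjusted p = 0.0665) and no other of the 32, and added Lepr's sex-dependent response (adjusted p = 0.0131). Slide as a random block (0.0487) or fixed term (0.0383) also added it, and the fixed term added Met after 1 GH injection (0.0435). One GH injection gave 2 with its own arrays alone. The 4 GH arrays alone, where every probe had the same SE, added Met after 1 and 2 injections, Insr after 1 (-0.17, adjusted p = 0.00472) and the difference between GH treatments at Prlr, for counts of 6, 6 and 5. The 2 GH treatments differed at 2 probes with processed signals, with the deposited ratios and without the dye term. Leaving out 1 array gave 3 to 3 probes for intact males over females, 4 to 5 and 2 to 3 for hypophysectomy in males and females, 0 to 1 between the hypophysectomised sexes, 1 to 2 and 3 to 3 after 1 and 2 GH injections, 3 to 5 for the sex difference in the response and 2 to 2 for the difference between GH treatments. With processed signals, which are not scaled between arrays, the range of median levels was 2.37 in place of 1.55 for the 1-spot Egfr probe, 2.38 in place of 1.38 for the 10-spot probe, 0.95 in place of 0.33 for Insr and 1.13 in place of 0.46 for Met. The number of all probes called ran over the alternatives from 261 to 4445 for intact males over females, 345 to 10084 and 370 to 9126 for hypophysectomy in males and females, 6 to 393 between the hypophysectomised sexes, 0 to 12267 and 75 to 14863 for 1 and 2 injections, 118 to 3682 for the sex difference in the response and 0 to 10689 for the difference between GH treatments, with the lowest count from median centring except between the hypophysectomised sexes. The cause was not tested. Slide as a random block had a correlation of 0.0137 and, like slide as a fixed term (chosen after seeing the data), lost none of the 32 calls.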

Other observations

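Of 30 other receptors whose ligands reach the liver, 28 or 29 were tested. Fas, the death receptor, was lower in intact males (-1.52 ± 0.06), higher after hypophysectomy in males (1.13 ± 0.06), lower after it in females (-0.31 ± 0.06), and higher after 1 (0.63 ± 0.06) and 2 (1.29 ± 0.06) GH injections, with a male minus female response to hypophysectomy of 1.40 ± 0.06. Thrb, a thyroid hormone receptor, rose after hypophysectomy in males (1.42 ± 0.25) and females (0.86 ± 0.25) and fell after 2 injections (-0.86 ± 0.25). Klb, the co-receptor of endocrine fibroblast growth factors, fell after hypophysectomy in males (-0.83 ± 0.08) and females (-0.98 ± 0.08), as did Pdgfrb, a receptor of stellate cells (-1.22 ± 0.09 and -0.92 ± 0.09). In all, 3 were higher and 3 lower in intact males (median -0.04), 9 rose and 4 fell after hypophysectomy in males (median 0.08), 6 rose and 8 fell in females (median 0.07), 2 were higher in hypophysectomised males than females (median -0.03), 5 rose and 3 fell after 1 injection (median 0.03), and 5 rose and 8 fell after 2 (median -0.07). Over all tested probes, 15.5%, 37.5%, 36.3%, 0.949%, 14.3% and 30.8% were called in those comparisons, against 44.8% and 50% of these receptors after hypophysectomy in males and females.

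Marker genes of other cells were among the probes called after hypophysectomy, where 37.5% of all tested probes were called in males and 36.3% in females. The called share in males and females was 55.6% and 44.4% for bile duct, 62.5% and 71.4% for endothelium, 60% and 40% for lymphocytes, 62.5% and 25% for stellate cells, and 50% and 40% for hepatocytes. Bile duct markers rose at 4 of 9 genes in males and 3 of 9 in females, with Epcam at 1.82 ± 0.14 and 1.75 ± 0.14 and Krt19 at 1.89 ± 0.49 and 1.69 ± 0.49, and 1 fell in each. Endothelial markers rose at 5 of 8 and 5 of 7, lymphocyte markers at 6 of 10 and 4 of 10, and of 8 stellate markers 2 rose and 3 fell in males and 2 fell in females. Hepatocyte markers were higher at 2 and lower at 3 of 10 in males, and higher at 3 and lower at 1 in females. The part of such cells in the receptor ratios was not tested.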
